A study of Mus musculus with 17 samples.

Results

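The 10 acute phase genes described here are *Saa1*, *Saa2*, *Saa3*, *Orm1*, *Orm2*, *Orm3*, *Hp*, *Lcn2*, *Crp* and *Apcs*. They were picked by gene symbol from the 55536 gene identifiers of the mouse RNA-seq tables, all 10 were found, and all 10 are among the 14393 genes that passed the filter on low counts. The study edited the liver of living mice. Adeno-associated virus of serotype 8 (AAV8), which favours hepatocytes, carried the nuclease SaCas9 with guides to one of 2 places in the genome: a site called WRE at the *Dlk1*/*Dio3* locus, or *Rosa26*, a locus commonly used as a neutral target. The WRE-edited group has 6 RNA-seq libraries and the Rosa26-edited group has 5. Animals of both groups were C57BL/6J mice of the genotype ApcDHep, 3 months old, with 1 month of AAV8 and 7 days of tamoxifen (2 mg), so the Rosa26-edited controls share the Apc deletion, the virus, the nuclease and the tamoxifen. The hepatocytes were obtained by perfusing the liver with collagenase and were profiled as bulk RNA. The labels name no Cre driver, and no group without Apc deletion or without virus was analysed here. Loss of Apc in hepatocytes leaves beta-catenin free to act on its target genes.

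Acute phase proteins are plasma proteins, made mainly by hepatocytes, whose output shifts within hours of infection or tissue injury. Macrophages, including the Kupffer cells of the liver, release interleukin-6, interleukin-1 and tumour necrosis factor. Interleukin-6 acts on hepatocytes through its receptor and the shared subunit gp130 (*Il6st*) to activate the factor STAT3, while interleukin-1 and tumour necrosis factor act through NF-kB, and C/EBP factors bind many of the promoters. In mice the serum amyloid A proteins and orosomucoids respond strongly and C-reactive protein, a major reactant in humans, responds weakly.

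The libraries held 20727036 to 38935135 expected counts each. The library names end in r770, r711 or r595, read here as 3 runs of unstated kind: r770 holds 3 WRE-edited and 3 Rosa26-edited libraries, r595 holds 1 WRE-edited library (number 6) and 2 Rosa26-edited libraries (numbers 4 and 5), and r711 holds WRE-edited libraries 4 and 5 with no control, so the group difference was taken within runs. Run r595 stood apart in RNA makeup: its 3 libraries had 2.29% to 3.00% of their counts on the mitochondrial ribosomal RNA genes, against 19.0% to 29.1% in the other 8. The library names of WRE-edited 4 and 6 carry the same number, and whether they come from 1 mouse is not stated. The labels do not say that every replicate is a separate animal, so the spread behind each p-value may be partly technical. The label of hepatocytes fits the defining markers: all 12 hepatocyte markers were measured, their sum lay between 74928 and 88001 CPM (counts scaled to a common library size) in WRE-edited libraries and between 68847 and 86694 CPM in Rosa26-edited libraries, and *Alb* (albumin) alone lay between 31449 and 40404 CPM over both. The edit was visible at its target: *Rian*, a long non-coding RNA of the *Dlk1*/*Dio3* locus, averaged 74.4 ± 27.1 CPM in WRE-edited and 283 ± 97.7 CPM in Rosa26-edited libraries (SD, n = 6 and 5), and fell by 2.30 on the log2 scale (SE 0.26, adjusted p = 0.0188, edgeR quasi-likelihood test with Benjamini-Hochberg adjustment). It was the single gene past an adjusted p of 0.05 in that test, and the call was lost in 10 of 24 alternatives, with the sign kept in each.

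In none of the 10 acute phase genes did the difference between WRE-edited and Rosa26-edited hepatocytes exceed the spread between libraries. Adjusted p-values lay between 0.656 and 0.973 (edgeR), 0 of 10 were called by edgeR, against 0.00695% of all 14393 tested genes, and 0 of 10 by DESeq2, against 0.563%. None had an unadjusted p under 0.05 either, a level passed by 10.1% of tested genes, 4.95% in the higher and 5.14% in the lower direction. In each of the 10 genes the 2 groups overlapped; non-overlapping groups were found for 0.375% of tested genes. The median log2 fold change of the 10 was -0.14, beside 0.01 over all tested genes. Of the 10, 2 were above 0, where 51.7% of tested genes were. What the data do show is a wide spread between libraries in some of the genes, part of which belongs to single libraries. The SD of log2 CPM exceeded that of 93.0% to 96.4% of tested genes for *Saa1*, *Saa2*, *Orm2*, *Orm3* and *Lcn2*. *Crp*, *Orm1*, *Saa3*, *Hp* and *Apcs* spread less, with an SD above that of 10.5% (*Crp*) to 72.9% (*Apcs*) of tested genes over all 11 libraries. Without Rosa26-edited 5 the first 5 genes exceeded 68.8% (*Saa1*) to 95.9% (*Orm3*). *Apcs* then exceeded 76.3%, more than *Saa1* and *Saa2* (74.7%), so the division did not hold for it. *Crp*, *Orm1*, *Hp* and *Saa3* exceeded 3.85% (*Crp*) to 54.8% (*Saa3*). Rosa26-edited 5 had the highest level of 8 of the 10 genes, where 12.5% of tested genes were highest in it. WRE-edited 2 had the highest level of the other 2, *Saa3* and *Apcs*, where 6.64% of tested genes were highest in it.

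**Figure D1:**
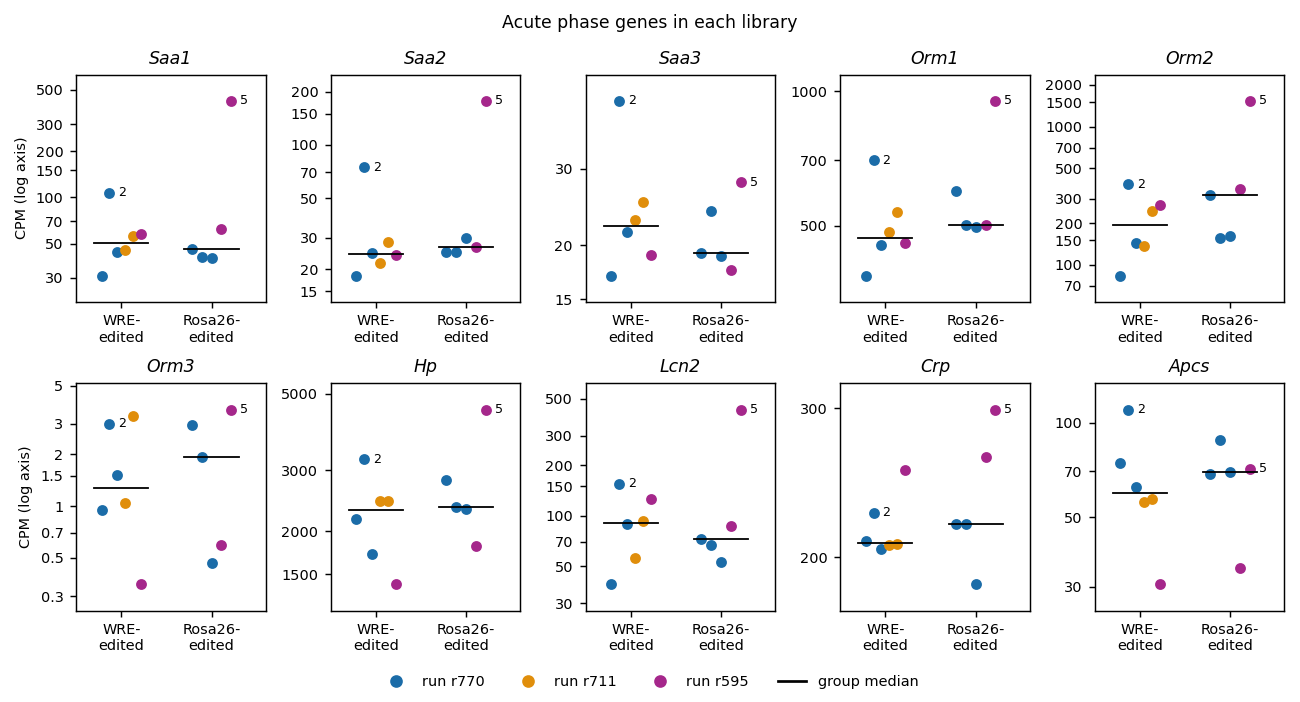
Level of each of the 10 genes in CPM (log axis) in the 6 WRE-edited libraries (left in each panel) and the 5 Rosa26-edited libraries (right), coloured by run; black lines mark group medians, and the digits mark WRE-edited 2 and Rosa26-edited 5. Rosa26-edited 5 stands highest in 8 of 10 panels, and the 2 groups overlap in every panel.

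Serum amyloid A. *Saa1* and *Saa2* encode the circulating forms that ride on high-density lipoprotein, and *Saa3* encodes a form also made outside the liver, for example by macrophages and fat. All 3 lie on chromosome 7 (GRCm38.p6): *Saa1* at chr7:46740497-46743181, *Saa2* at chr7:46751833-46754313 and *Saa3* at chr7:46711998-46719615. *Saa1* had 31.0 CPM in the lowest, 50.9 in the median and 107 in the highest of the WRE-edited libraries, against 46.6, 40.7, 40.6, 62.5 and 425 CPM in Rosa26-edited 1 to 5. The top of the WRE-edited range was WRE-edited 2, and without Rosa26-edited 5 the Rosa26-edited libraries lay inside the WRE-edited range. Group means were 57.0 ± 26.5 CPM in WRE-edited and 123 ± 169.03 CPM in Rosa26-edited libraries (SD, n = 6 and 5), and the within-run log2 fold change was -0.13 (SE 0.72, 95% interval -1.78 to 1.51, edgeR adjusted p = 0.956).

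*Saa2* followed the same order of libraries at the top. It had 18.4, 24.4 and 74.9 CPM as the lowest, median and highest of the WRE-edited libraries, against 25.1, 25.0, 29.8, 26.7 and 177 CPM in Rosa26-edited 1 to 5, and its within-run log2 fold change came to -0.09 (edgeR, SE 0.76, adjusted p = 0.973). WRE-edited 2 and Rosa26-edited 5 again stood above all others, and the other 9 libraries lay between 18.4 and 29.8 CPM. *Saa3* had another library on top: it had 17.02, 22.2 and 43.0 CPM as the lowest, median and highest of the WRE-edited libraries, against 19.2, 23.9, 18.9, 17.5 and 27.9 CPM in Rosa26-edited 1 to 5. Its highest library was WRE-edited 2, Rosa26-edited 5 was second, and the log2 fold change was 0.20 (edgeR, SE 0.27, adjusted p = 0.793). *Saa1* and *Saa2* are close copies, and their expected counts were fractional in 10 of 11 libraries, so reads were shared between them by estimation and the split is uncertain. *Saa1* made up 58.0% to 71.2% of their summed TPM (transcript abundance, which corrects for length), a narrow range beside the 13.7-fold range of *Saa1* itself in CPM, and the log2 fold change of the summed counts was -0.12.

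Because *Saa1* and *Saa2* moved together between libraries, their promoters are printed in full (250 bases before to 50 after the start, RefSeq, GRCm38.p6), 5′ to 3′ on the gene's strand: *Saa1* is chr7:46742931-46743230 on the minus strand and *Saa2* is chr7:46751583-46751882 on the plus strand. Capitals mark a match to the C/EBP motif TTGCNNAA on either strand.
Saa1: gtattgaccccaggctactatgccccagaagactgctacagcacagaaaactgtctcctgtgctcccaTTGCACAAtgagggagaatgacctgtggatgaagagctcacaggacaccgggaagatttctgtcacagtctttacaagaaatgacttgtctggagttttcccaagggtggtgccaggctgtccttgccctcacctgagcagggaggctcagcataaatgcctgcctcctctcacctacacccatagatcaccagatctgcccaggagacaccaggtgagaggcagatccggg
Saa2: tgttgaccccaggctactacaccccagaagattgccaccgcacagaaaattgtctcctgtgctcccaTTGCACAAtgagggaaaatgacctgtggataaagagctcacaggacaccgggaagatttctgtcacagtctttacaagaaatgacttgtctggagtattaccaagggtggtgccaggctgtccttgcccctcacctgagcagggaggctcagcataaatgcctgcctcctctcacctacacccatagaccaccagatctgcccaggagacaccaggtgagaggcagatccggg
The 2 promoters were 95.4% identical in a global alignment, and the match began 182 bases before the start in *Saa1* and 183 before it in *Saa2*. Promoters of 8 of the 10 genes were in the RefSeq table, and those of *Orm1* and *Hp* are not shown. The C/EBP motif was in 6 of these 8 and in 10.8% of all 32851 promoters of the same length; 2 of the 6 are the near-identical *Saa1* and *Saa2*, and 2 are *Orm2* and *Orm3*, which were 86.6% identical, so the 6 are not independent. The other 26 pairs were 46.7% to 54.2% identical. A STAT motif (TTCNNNGAA) was in 1 of 8, *Apcs*, beside 8.3% of all promoters. The pattern searched for NF-kB (GGNNTTTCC), a partial site, was in 1 of 8, *Saa3*, beside 5.82%. Both strands were searched and the 3 motifs did not overlap in these promoters. Only these exact patterns were searched, so sites of another length or spacing would be missed, in *Saa1* as elsewhere. *Crp* held none of the 3. A match is a description of letters, and binding was not measured.

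The same motif is shown in 60 bases around the match for the other 4 genes, with the C/EBP match in capitals: *Saa3* at chr7:46715742-46715801 (minus strand), *Orm2* at chr4:63362303-63362362 (plus), *Orm3* at chr4:63356011-63356070 (plus) and *Lcn2* at chr2:32387922-32387981 (minus).
Saa3: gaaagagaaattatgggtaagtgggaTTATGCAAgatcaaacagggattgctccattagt
Orm2: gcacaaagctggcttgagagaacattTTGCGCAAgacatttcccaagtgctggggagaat
Orm3: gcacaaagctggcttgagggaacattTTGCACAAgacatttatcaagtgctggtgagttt
Lcn2: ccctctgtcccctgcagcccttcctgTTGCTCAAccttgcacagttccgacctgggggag
The match began 99, 120, 121 and 216 bases before the start in *Saa3*, *Orm2*, *Orm3* and *Lcn2*, in that order. *Saa3* holds it on the reverse strand. All these starts are those of the promoter entries. For *Saa1*, *Saa3* and *Orm3* they lie inside the gene spans printed with each gene family, not at the end of the span.

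Orosomucoids. *Orm1*, *Orm2* and *Orm3* encode alpha-1-acid glycoproteins, plasma proteins that bind basic drugs and dampen immune cells, and lie side by side on chromosome 4 (*Orm1* at chr4:63344556-63348163, *Orm3* at chr4:63356069-63359506 and *Orm2* at chr4:63362449-63365877). *Orm1*, the most abundant, had 387, 470.4 and 702 CPM as the lowest, median and highest of the WRE-edited libraries, against 599, 502, 496, 503 and 952 CPM in Rosa26-edited 1 to 5. Its log2 fold change was -0.24 (edgeR, SE 0.23, adjusted p = 0.719), and 4 of the 6 WRE-edited libraries lay below all 5 Rosa26-edited ones. *Orm2* spread much more widely: it had 83.2, 194.1 and 380.4 CPM as the lowest, median and highest of the WRE-edited libraries, against 317, 156, 162, 355 and 1537 CPM in Rosa26-edited 1 to 5. The highest library had 18.5 times the level of the lowest, the widest range among the 10 genes, and the SD of its log2 CPM was larger than that of 96.1% of tested genes. The within-run log2 fold change of *Orm2* was -0.54 (SE 0.65, 95% interval -2.01 to 0.93, edgeR adjusted p = 0.779).

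*Orm3* was close to the floor of what was counted, with 0.351, 1.28 and 3.31 CPM as the lowest, median and highest of the WRE-edited libraries, against 2.94, 1.92, 0.464, 0.592 and 3.64 CPM in Rosa26-edited 1 to 5. These levels stand for 8 to 104 expected counts per library, and the log2 fold change was -0.54 (edgeR, SE 0.75, adjusted p = 0.808). *Orm1* and *Orm2* had fractional counts in all 11 libraries, so their split is also an estimate; the sum of the 3 genes' counts gave a log2 fold change of -0.38. On the TPM scale the ratio of *Orm2* to *Orm1* was 0.215 in WRE-edited 1, its lowest value, and 1.61 in Rosa26-edited 5, its highest. In the other 9 libraries it lay between 0.284 and 0.706, so Rosa26-edited 5 was the one library in which *Orm2* exceeded *Orm1*.

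Haptoglobin and lipocalin-2. *Hp* (chr8:109575128-109579172) encodes haptoglobin, which captures free haemoglobin, and *Lcn2* (chr2:32384637-32387739) encodes lipocalin-2, which withholds iron from bacteria by binding their siderophores. *Hp* had 1403, 2308 and 3226 CPM as the lowest, median and highest of the WRE-edited libraries, against 2811, 2351, 2322, 1807 and 4499.6 CPM in Rosa26-edited 1 to 5. Its lowest 3 libraries were WRE-edited 6, WRE-edited 3 and Rosa26-edited 4, and its log2 fold change was -0.39 (edgeR, SE 0.30, adjusted p = 0.656). *Lcn2* had 38.9, 90.8 and 155 CPM as the lowest, median and highest of the WRE-edited libraries, against 72.1, 66.4, 53.1, 86.6 and 429.9 CPM in Rosa26-edited 1 to 5. Here 4 of the 6 WRE-edited libraries lay above the first 4 Rosa26-edited ones, and Rosa26-edited 5 stood 2.77-fold above the next library. The log2 fold change of *Lcn2* was 0.12 (SE 0.58, 95% interval -1.19 to 1.44, edgeR adjusted p = 0.95). Group means were 92.9 ± 43.2 CPM in WRE-edited and 142 ± 162 CPM in Rosa26-edited libraries (SD, n = 6 and 5).

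Pentraxins. *Crp* (chr1:172698056-172699966) encodes C-reactive protein, and *Apcs* (chr1:172893961-172895054) encodes serum amyloid P component, the main pentraxin reactant of mice; both bind microbes and dead cells and activate complement. *Crp* was the steadiest of the 10 genes, with 205, 208 and 254 CPM as the lowest, median and highest of the WRE-edited libraries, against 219, 219, 186, 263 and 299 CPM in Rosa26-edited 1 to 5. Its spread between libraries was smaller than that of most genes (the SD of its log2 CPM exceeded that of 10.5% of tested genes), and its log2 fold change of -0.02 (SE 0.11) had the narrowest interval, -0.26 to 0.22 (edgeR adjusted p = 0.958). *Apcs* had 30.6, 59.7 and 110.2 CPM as the lowest, median and highest of the WRE-edited libraries, against 68.5, 87.9, 69.7, 34.4 and 71.5 CPM in Rosa26-edited 1 to 5. The lowest 2 libraries, WRE-edited 6 and Rosa26-edited 4, were both from run r595, while Rosa26-edited 5 of the same run lay at the level of run r770. The log2 fold change of *Apcs* was -0.14 (edgeR, SE 0.26, adjusted p = 0.858).

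Levels of different genes can be set side by side on the TPM scale. By median over the 11 libraries, *Hp* was the most abundant at 1412 TPM, followed by *Orm1* at 590.3, *Orm2* at 283, *Crp* at 100.5, *Saa1* at 73.2, *Lcn2* at 63.6, *Apcs* at 52.8, *Saa2* at 34.9, *Saa3* at 34.3 and *Orm3* at 1.33 TPM. *Hp* exceeded *Orm1*, and *Saa3* exceeded *Orm3*, in all 11 libraries, and *Orm1* exceeded *Orm2* and *Orm2* exceeded *Crp* in 10. Lower down, neighbours changed places: *Saa1* exceeded *Lcn2* in 8 libraries, *Apcs* exceeded *Saa2* in 7 and *Saa2* exceeded *Saa3* in 6.

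The fold changes turned on single libraries. With Rosa26-edited 5 left out, the median log2 fold change of the 10 genes was 0.04, beside 0.02 over all tested genes. Of the 10, 6 were above 0, with *Saa1* at 0.37 (SE 0.33), *Saa2* at 0.40 (SE 0.39) and *Lcn2* at 0.57 (SE 0.35). With WRE-edited 2 left out instead, the median was -0.55, beside 0.01 over all tested genes, and none of the 10 was above 0. *Saa1* was at -0.77 (SE 0.63), *Orm2* at -1.21 (SE 0.52), *Orm1* at -0.46 (SE 0.20) and *Hp* at -0.63 (SE 0.28). These last 3 genes then had unadjusted p-values of 0.0464, 0.0374 and 0.0427, a level passed in that direction by 5.87% of tested genes, with adjusted p-values of 0.435, 0.423 and 0.433 (edgeR). With both libraries left out, which was decided after their values were seen, the median was -0.21; *Orm2* at -0.75 (SE 0.32) and *Hp* at -0.36 (SE 0.14) had unadjusted p-values of 0.0439 and 0.0289, a level passed in that direction by 4.56% of tested genes, and adjusted p-values of 0.605 each (edgeR). Leaving out only WRE-edited 6, the WRE-edited library of run r595, gave a median of 0.08, beside 0.002 over all tested genes. Of the 10 genes 7 were then above 0, with *Saa1* at 0.51 (SE 0.66) and *Saa2* at 0.57 (SE 0.69). No gene of the 10 passed an adjusted p of 0.05 in any of these fits.

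**Figure D2:**
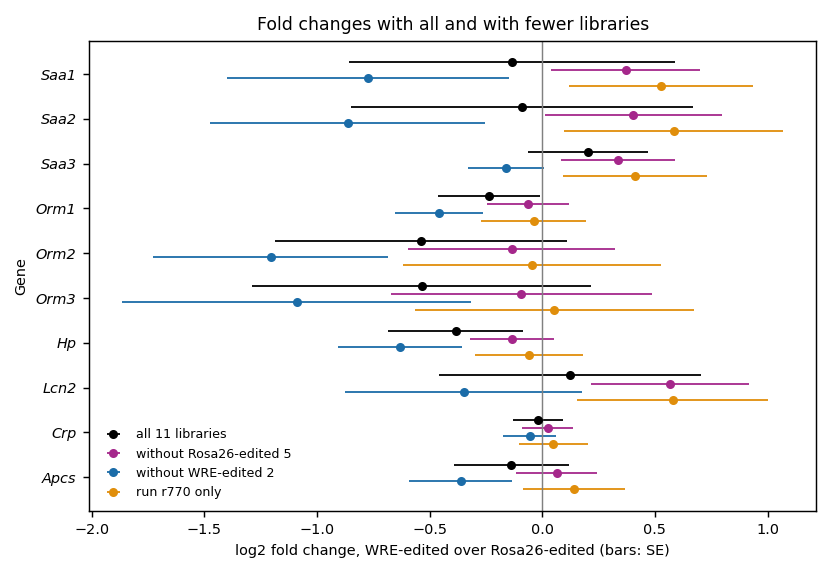
Log2 fold change of each gene, WRE-edited over Rosa26-edited (x axis; bars are 1 SE), from the fit to all 11 libraries (black), without Rosa26-edited 5 (purple), without WRE-edited 2 (blue) and within run r770 alone (orange). The purple points lie to the right and the blue points to the left of the black ones for every gene, and in 7 of 10 genes the purple or orange points and the blue ones fall on different sides of 0.

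The within-run differences pointed apart for 7 of the 10 genes, and *Orm1*, *Orm2* and *Hp* were below 0 in both runs. In the edgeR fit to run r770 alone, with 3 libraries a group, *Saa1* was at 0.53 (SE 0.41) on the log2 scale. *Saa2* was at 0.58 (SE 0.49) and *Lcn2* at 0.58 (SE 0.43). In that fit 7 of 10 genes were above 0, and the median over all tested genes was 0.01. Run r595 is given as differences of mean log2 CPM. On that measure run r770 gave 0.31 for *Saa1*, 0.29 for *Saa2*, 0.36 for *Lcn2*, -0.27 for *Orm2*, -0.12 for *Hp* and 0.04 for *Crp*. Within run r595, WRE-edited 6 minus the mean of Rosa26-edited 4 and 5 was below 0 for all 10 genes, at -1.49 for *Saa1*, -1.51 for *Saa2*, -1.46 for *Orm2*, -1.02 for *Hp* and -0.14 for *Crp* (differences of log2 CPM). That run has 1 WRE-edited library, and its Rosa26-edited mean includes Rosa26-edited 5, the highest library for most of the 10 genes. Beside Rosa26-edited 4 alone, WRE-edited 6 was higher in *Lcn2* (126 against 86.6 CPM) and *Saa3* (18.9 against 17.5 CPM). It was lower in the rest of the 10 genes, with 58.0 against 62.5 CPM of *Saa1*. The share of all tested genes below 0 within run r595 was not counted. The test of the difference between the 2 runs called 0 of 10 genes, against 0% of 14582 genes fitted (edgeR adjusted p between 0.787 and 0.893), with 0 of 10 at an unadjusted p under 0.05, against 6.52%. DESeq2 also called 0 of the 10, against 0.048%, with 1, *Hp*, at an unadjusted p under 0.05, against 6.98% of genes.

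Rosa26-edited 5 had the highest level of 8 of the 10 genes, where 12.5% of tested genes were highest in it. Relative to the median of the other 10 libraries it held 9.25 times the *Saa1* level, 7.58 times the *Orm2* level, 7.08 times the *Saa2* level, 5.42 times the *Lcn2* level and 2.85 times the *Orm3* level in CPM. *Hp* and *Orm1* were at 1.93 and 1.91 times that median, *Crp* at 1.40, *Saa3* at 1.37 and *Apcs* at 1.09 times. Most of those 10 libraries are from other runs than r595, with the other share of mitochondrial ribosomal RNA, whose part in these folds was not tested. Set against Rosa26-edited 4, the other Rosa26-edited library of its run, Rosa26-edited 5 held 6.80 times the *Saa1*, 6.64 times the *Saa2*, 4.96 times the *Lcn2* and 4.33 times the *Orm2* level, and 6.14 times the level of the sparse *Orm3*. Within that pair all 10 genes were higher in Rosa26-edited 5, as were 7485 of the 14393 tested genes. At least 2-fold higher were 7 of the 10, where 5.72% of tested genes were. In Rosa26-edited 5, 5 of the 10 genes were at least 2-fold above the median of the other 10 libraries, where 5.29% of all tested genes were. Of 24 further positive acute phase genes, 15 were highest in this library, where 12.5% of tested genes were, and 7 were at least 2-fold up. Among them were *Lbp* (lipopolysaccharide binding protein) at 193.5 CPM, against 28.7 to 84.9 CPM in all others, *Hamp* (hepcidin, the hormone that restrains iron export) at 296 CPM, against 25.6 to 138 CPM, and *Saa4* at 412 CPM, against 131 to 236 CPM; relative to Rosa26-edited 4 alone these were 2.57, 2.81 and 1.98 times as high. The 12 negative acute phase genes, which hepatocytes turn down in inflammation, had a median of 1.10 times the others' level. Of the 12, 4 (33.3%), *Alb*, *Trf* (transferrin), *Igf1* and *Tat*, were highest in this library. Another 2, *Ttr* (transthyretin) and *Rbp4*, were lowest in it, where 10.7% of tested genes were. *Ttr* lay at 0.485 and *Rbp4* at 0.666 times the median of the other 10 libraries, and at 0.791 and 0.721 times Rosa26-edited 4. In WRE-edited 2, 5 of the 10 genes were at least 2-fold above the median of the other 5 WRE-edited libraries, where 2.61% of tested genes were, and so were 4 of the 24, including the metallothioneins *Mt1* at 3.95 and *Mt2* at 5.16 times. *Hamp* went the other way in WRE-edited 2, at 30.5 CPM, which is 0.266 times that median. These libraries were singled out after their values were seen, and the shares are descriptions.

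**Figure D3:**
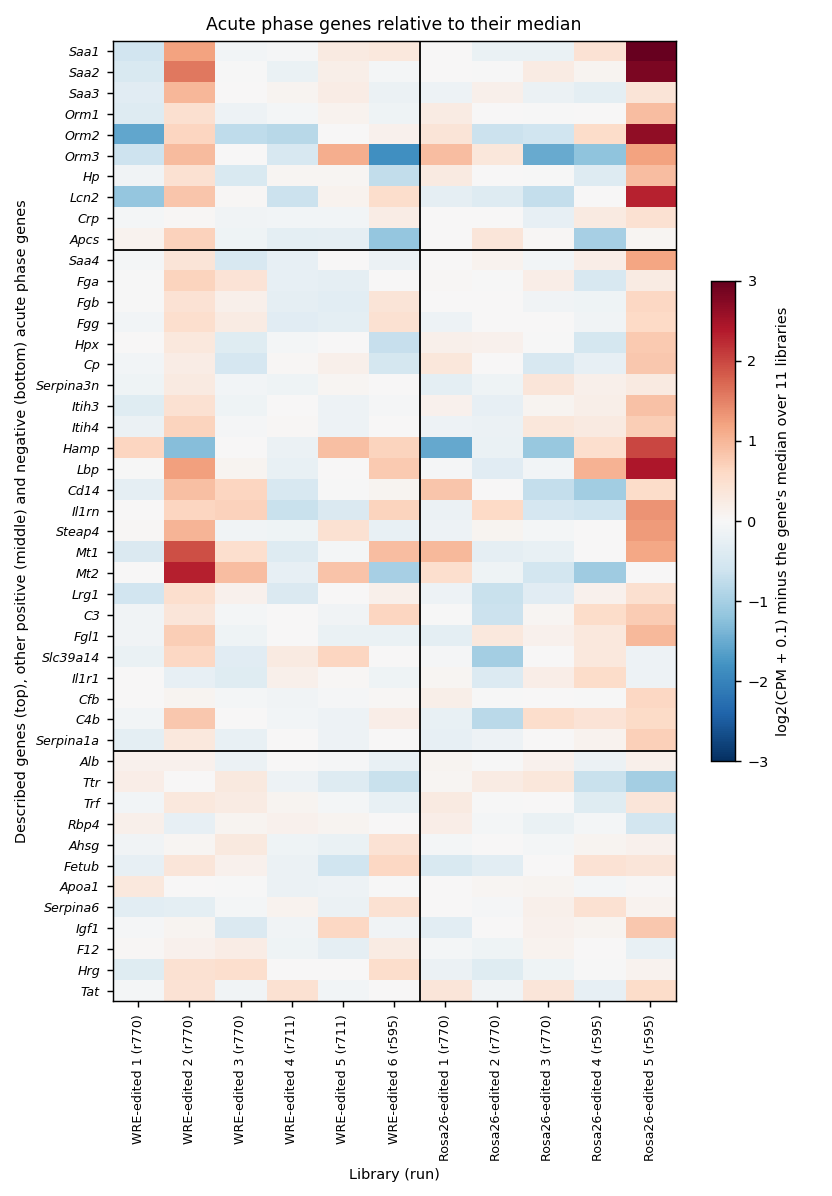
Log2(CPM + 0.1) of each gene minus its median over the 11 libraries (red above, blue below), with WRE-edited libraries left of the vertical line and Rosa26-edited libraries right of it; the 10 genes are at the top, 24 other positive acute phase genes in the middle and 12 negative ones at the bottom. The last column, Rosa26-edited 5, is the reddest for *Saa1*, *Saa2*, *Orm2*, *Lcn2* and *Lbp*, and WRE-edited 2 is the second red column.

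Markers of another liver cell type were high in the same library. The 13 macrophage markers, all above the count filter and none at 0, summed to between 476 and 645 CPM in WRE-edited libraries, against 639, 1059.9, 427, 482 and 1472 CPM in Rosa26-edited 1 to 5, and 9 of the 13 were highest in Rosa26-edited 5. *Marco*, a scavenger receptor of macrophages, stood at 369.7 CPM there, against 11.2 to 32.9 CPM in the other 10 libraries, and *Lyz2* (lysozyme) at 124 CPM, against 17.1 to 69.2 CPM. The Kupffer cell lectin *Clec4f* was not highest there: it had 119.5 CPM in Rosa26-edited 5 and 219.6 CPM in Rosa26-edited 2. Rosa26-edited 2, whose macrophage sum was second, had 40.7 CPM of *Saa1*, among the lowest levels, and WRE-edited 2, with the second highest *Saa1*, had a macrophage sum of 587 CPM, inside the range of the other WRE-edited libraries. Neutrophil markers, 12 genes of which 5 passed the filter, summed to 5.79 to 7.72 CPM in WRE-edited libraries, against 5.44, 24.3, 5.42, 8.84 and 13.3 CPM in Rosa26-edited 1 to 5. The part of these cells in the acute phase levels was not tested, and in bulk RNA more cells of a type and more RNA per cell cannot be told apart.

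**Figure D4:**
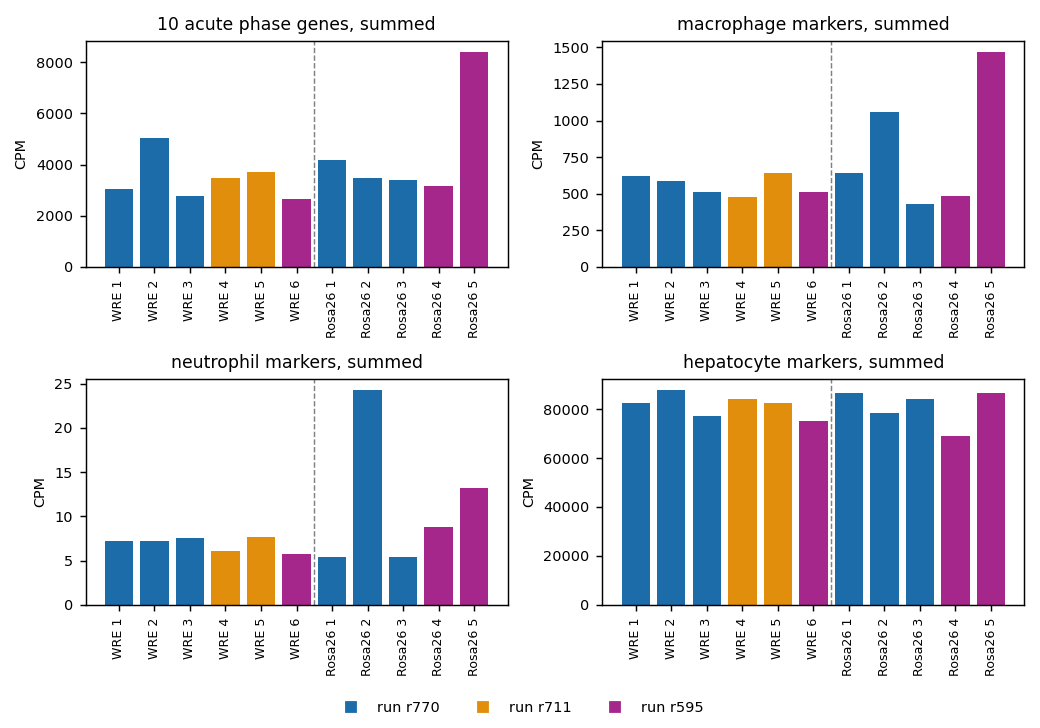
Summed CPM of the 10 acute phase genes, 13 macrophage markers, 12 neutrophil markers and 12 hepatocyte markers in each library (bars from 0, coloured by run), WRE-edited left and Rosa26-edited right of the dashed line. The acute phase sum (8424 CPM) and the macrophage sum (1472 CPM) both peak in Rosa26-edited 5, the neutrophil sum peaks in Rosa26-edited 2 (24.3 CPM), and the hepatocyte sums are alike (68847 to 88001 CPM).

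Across libraries *Saa1* and several of the other genes varied together. Over the 11 libraries, Pearson's r of log2 CPM with *Saa1* was 0.96 for *Saa2*, 0.95 for *Lcn2*, 0.94 for *Orm2*, 0.91 for *Orm1*, 0.78 for *Crp* and 0.69 for *Hp*, each past the threshold after Benjamini-Hochberg adjustment over 9 pairs (permutation test, two-sided, adjusted p between 0.000225 and 0.0412). Spearman's rho was 0.88 for *Lcn2* and for *Orm2*, 0.72 for *Orm1*, 0.75 for *Crp*, 0.58 for *Saa2* and 0.39 for *Hp*, with adjusted permutation p of 0.00342 for *Lcn2* and *Orm2*, 0.0362 for *Orm1* and 0.0335 for *Crp*, while *Saa2* (0.12) and *Hp* (0.265) did not pass by rank. *Saa3* (r = 0.56), *Orm3* (r = 0.46) and *Apcs* (r = 0.12) did not pass (adjusted permutation p = 0.122, 0.162 and 0.679). Tested genes were also ranked by r with *Saa1*, with *Saa1* itself at rank 1. *Saa2* was at rank 3, *Lcn2* at 4, *Orm2* at 5, *Orm1* at 12, *Crp* at 82 and *Hp* at 303. *Saa3* was at 940, *Orm3* at 1792 and *Apcs* at 6111. The share of all tested genes past the same threshold was not counted, here or within a run. The 2 libraries farthest from the median of *Saa1* were Rosa26-edited 5 and WRE-edited 2. Without them (n = 9) r held for *Orm2* at 0.88 and *Lcn2* at 0.85, with an adjusted p of 0.0221 each by the exact permutation test. *Saa2* (0.56), *Orm1* (0.50), *Crp* (0.64) and *Hp* (-0.36) then missed the threshold (adjusted exact permutation p between 0.144 and 0.435). By rank over all 11, which includes those 2 libraries, *Orm1* and *Crp* had passed and *Saa2* and *Hp* had not. Without Rosa26-edited 5 alone, *Saa2* (0.86) and *Orm1* (0.78) passed, with adjusted permutation p of 0.0188 and 0.0289. *Crp* (0.48) and *Hp* (0.24) then did not (adjusted permutation p = 0.239 and 0.561). *Apcs* then ran opposite to *Saa1* (r = -0.79, adjusted exact permutation p = 0.0255), and 2 of the 9 libraries, both of run r595, are the ones with low *Apcs*.

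Within run r770 alone (n = 6, exact permutation test, adjusted over the 9 pairs) r with *Saa1* was 0.97 for *Saa2*, 0.95 for *Saa3*, 0.93 for *Lcn2*, 0.88 for *Orm1* and 0.83 for *Orm2*, with adjusted p between 0.0313 and 0.0475. The other 4, *Apcs* (0.73), *Hp* (0.69), *Orm3* (0.59) and *Crp* (0.50), did not pass (adjusted p between 0.173 and 0.275). Spearman's rho within this run, given with no p, was 0.94 for *Lcn2*, 0.89 for *Orm3*, 0.83 for *Orm1* and 0.77 for *Saa3* and *Orm2*. It was 0.66 for *Hp*, 0.60 for *Saa2* and for *Crp*, and 0.09 for *Apcs*. WRE-edited 2 is one of these 6 libraries. The libraries share their runs and, in part, their group, and depth differed between them. Reads of *Saa1* and *Saa2* were split by estimation, and the part of this in their r was not tested.

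**Figure D5:**
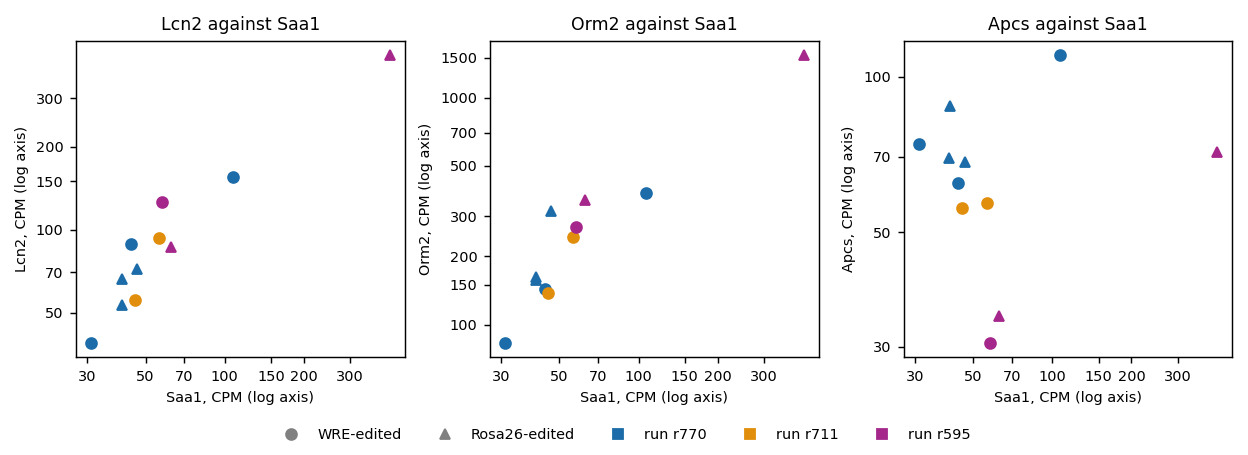
*Lcn2* (left), *Orm2* (middle) and *Apcs* (right) against *Saa1* in CPM on log axes, 1 point per library; circles are WRE-edited, triangles Rosa26-edited, and colours mark runs. *Lcn2* and *Orm2* climb with *Saa1* over the whole range (r = 0.95 and 0.94, n = 11), while *Apcs* does not (r = 0.12).

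Among tested genes other than the 10, those most like *Saa1* over the 11 libraries by Pearson's r of log2 CPM, given with no p, were *Irak3* (0.97), *Serpina1a* (0.93), *A1bg* (0.93), *Marco* (0.93), *Lbp* (0.92), *Usp12* (0.92), *Itih3* (0.91), *Saa4* (0.90), *Ptprm* (0.89) and *Birc3* (0.88). *Irak3* encodes a brake on interleukin-1 receptor signalling; it had 2.28 CPM in WRE-edited 2 and 5.29 CPM in Rosa26-edited 5, against 1.16 to 1.58 CPM in the other 9 libraries. 4 of the 10 (*Serpina1a*, *Lbp*, *Itih3* and *Saa4*) are among the 24 further acute phase genes, and *Marco* is a macrophage marker. Without Rosa26-edited 5, r was 0.85 for *Irak3*, 0.82 for *Serpina1a* and for *Lbp*, 0.81 for *Itih3* and 0.76 for *A1bg*. It was 0.63 for *Birc3*, 0.60 for *Usp12*, 0.58 for *Saa4*, 0.57 for *Ptprm* and 0.54 for *Marco*.

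The genes upstream of the response were read from the same fit. The 24 further positive acute phase genes had a median log2 fold change of 0.16, with 0 past an adjusted p of 0.05 and 0 at an unadjusted p under 0.05; the smallest p-values were those of *Mt2* (0.93, SE 0.59), *Fgg* (0.24, SE 0.17), *Fga* (0.23, SE 0.18) and *Il1r1* (-0.22, SE 0.17). *Fga* and *Fgg* encode fibrinogen chains. Of the 12 negative acute phase genes 0 passed the adjusted threshold and 1, *Hrg* (histidine-rich glycoprotein), had an unadjusted p under 0.05 (log2 fold change 0.47, SE 0.16, adjusted p = 0.438, edgeR). The next 3 were *Fetub* at 0.31, *F12* at 0.22 and *Ahsg* at 0.19. *Alb* was at -0.09 (SE 0.13).

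On the interleukin-6 side 9 of 14 cytokine and receptor genes passed the filter. *Il6* itself did not, with 0 to 0.307 CPM in WRE-edited and 0 to 0.336 CPM in Rosa26-edited libraries. *Il6ra*, the receptor, was at 0.06 (SE 0.29) and *Il6st*, gp130, at 0.15 (SE 0.18). The smallest p-values belonged to *Tyk2*, a kinase (0.26, SE 0.12, unadjusted p = 0.0441, adjusted p = 0.477, edgeR), *Il22ra1* (0.49, SE 0.26), *Lifr* (-0.21, SE 0.15) and *Jak2* (-0.10, SE 0.12). Of 13 STAT3 factors and feedback genes 0 passed the adjusted threshold, while 4 had an unadjusted p under 0.05 with a positive sign, where 4.95% of tested genes did: *Bcl3* (0.72, SE 0.20), *Stat3* itself (0.33, SE 0.14), *Socs2* (0.86, SE 0.38) and *Pias3* (0.47, SE 0.21), with adjusted p between 0.384 and 0.49 (edgeR). *Socs3*, the feedback inhibitor that STAT3 induces, was at 0.15 (SE 0.28).

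On the NF-kB side 21 of 22 genes of interleukin-1 and tumour necrosis factor signalling were tested and 0 passed the adjusted threshold. *Rela*, the p65 subunit (0.35, SE 0.11), and *Traf6*, an adaptor (0.31, SE 0.12), had unadjusted p under 0.05 with a positive sign, and *Il1a* (-0.61, SE 0.24) with a negative one; *Irak1* (0.26, SE 0.12) missed it. *Nfkbia*, the inhibitor that NF-kB induces, was at 0.13 (SE 0.21). Among 15 C/EBP, glucocorticoid and liver factors 14 had a positive log2 fold change, with a median of 0.39, where 51.7% of tested genes were positive, and 6 had an unadjusted p under 0.05, all positive, where 4.95% did. *Foxa2*, a hepatocyte factor, was at 0.80 (SE 0.17), *Foxa3* at 0.46 (SE 0.10), *Cebpb* at 0.65 (SE 0.18) and *Cebpa* at 0.45 (SE 0.17), with adjusted p of 0.262, 0.266, 0.384 and 0.441 (edgeR); the other two were *Hnf4a* and *Fkbp5*. None of the 15 passed in the main edgeR fit and 2 passed in DESeq2, where 0.563% of genes did. Markers of other cell types lay the other way between the same groups: all 13 macrophage markers (median -0.42, 0 at an unadjusted p under 0.05) and all 11 stellate and fibroblast markers (median -0.62, 3 at an unadjusted p under 0.05, *Des*, *Lum* and *Col1a2*, and 0 past the adjusted threshold in edgeR) had negative log2 fold changes. The stellate and fibroblast markers, none at 0, summed to 47.0 to 122 CPM in WRE-edited and 86.7 to 121 CPM in Rosa26-edited libraries, and their part in the factor values was not tested. *Cebpd*, an early reactant factor, was at 0.30 (SE 0.22). *Foxa3* had 32.0, 38.3 and 40.8 CPM as the lowest, median and highest of the WRE-edited libraries, against 28.1, 32.7, 29.5, 24.7 and 25.6 CPM in Rosa26-edited 1 to 5, so the groups overlapped by 1 library on each side. *Foxa2* and *Cebpb* were highest in WRE-edited 6, which had 40.1 and 90.9 CPM, against 20.3 and 58.2 CPM in Rosa26-edited 4 and 18.7 and 48.2 CPM in Rosa26-edited 5 of the same run.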

How the data were processed

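RNA-seq libraries of 6 WRE-edited and 5 Rosa26-edited samples were used; the 6 small RNA libraries of the series (3 and 3) were not used here. Per the submitters' processing notes, the authors worked with STAR 2.7.6a, RSEM 1.3.1, the build GRCm38, and DESeq2 1.26.0 in R 3.6.3; the annotation and strand setting are not stated there. The deposited tables hold RSEM expected counts, TPM and effective lengths (another measure, in bases) per gene; a deposited matrix of normalized signal, of 15322 genes, served as an alternative.

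Expected counts were rounded and scaled by TMM factors, and genes with low counts were dropped (filterByExpr, minimum count 10, minimum total 15). edgeR 4.0.16 (robust quasi-likelihood, R 4.3.3) was fitted to all 11 libraries with run and group, with Benjamini-Hochberg adjustment over 14393 genes; 55450 of 55536 identifiers had a name. DESeq2 1.42.0 and limma 3.58.1 (log2 of signal + 1) were alternatives. CPM compares libraries, and TPM compares genes. Correlations used log2 CPM with a prior count of 2 (scipy 1.17.1, 100000 resamples or exact). Promoters were aligned with Biopython 1.88. Replicate numbers did not pair the libraries: deviations of same-numbered libraries correlated between -0.09 and 0.18.

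The 10 genes, the lists and the motifs were chosen with earlier results of these data known. Named beside the 10 genes are up to 4 genes of each acute phase and pathway list with the smallest p, 9 genes of fixed choice and the 10 genes most like *Saa1*; genes given for Rosa26-edited 5 and WRE-edited 2, and *Hnf4a*, *Fkbp5* and *Il6*, were picked after their values were seen.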

Additional observations from a re-analysis of the deposited data

Results flagged for a closer look

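Within each group of 5 or 6 libraries, the gap between the most extreme library and its neighbour was divided by the group's whole range of log2 CPM and set against Dixon's 95% critical value (0.71 for 5 libraries, 0.625 for 6). Of the 20 groups tested (10 genes in 2 groups), 6 had a library past that value. The value is set so that about 1 in 20 groups passes by chance when all libraries come from the same normal distribution. Each group here mixes runs of different RNA makeup, so that rate is no yardstick for the 6. In the WRE-edited group this was WRE-edited 2 for *Saa2* (0.694, highest). In the Rosa26-edited group Rosa26-edited 5 stood apart as the highest library for *Saa2* (0.911), *Saa1* (0.816), *Lcn2* (0.766) and *Orm1* (0.71), and Rosa26-edited 4 as the lowest for *Apcs* (0.734). The 4 values of Rosa26-edited 5 come from 1 library and are not independent of each other.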

How the results depend on the processing

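The count of acute phase genes past an adjusted p of 0.05 was 0 of 10 under all 24 alternatives that gave it. Over all genes the count was 1 (*Rian*) and ran between 0 and 2 when 1 library was left out (0 without WRE-edited 2, 3, 4, 5 or 6 or Rosa26-edited 2, and 2 without Rosa26-edited 3), with *Rian* between -2.45 and -1.85 throughout; it was 81 with DESeq2, 450 without the filter on low counts, 0 without the run term, 0 in run r770 alone, 0 without run r711, and 2 with the replicate block and the run term. Without that filter the fit gave *Saa1* an SE of 0.18 in place of 0.72, and the test between runs called 4 of the 10 genes (*Saa1*, *Saa2*, *Orm2* and *Lcn2*), against 0.928% of all genes, and not 0; the cause was not tested. The replicate block gave a median of 0.15 for the 10 genes with the run term and -0.20 without it, and called none of them; the numbers do not pair the libraries. *Orm1*, *Orm2* and *Hp* stayed below 0 throughout, between -0.46 and -0.04, -1.27 and -0.05, and -0.63 and -0.06.

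The other 7 changed sign somewhere. When 1 library was left out, log2 fold changes ran from -0.77 to 0.51 for *Saa1*, -0.86 to 0.57 for *Saa2*, -0.16 to 0.40 for *Saa3*, -1.09 to 0.037 for *Orm3*, -0.35 to 0.57 for *Lcn2*, -0.070 to 0.036 for *Crp* and -0.36 to 0.13 for *Apcs*; so did *Il6ra* (-0.18 to 0.27), *Il6st* (-0.040 to 0.24) and *Nfkbia* (-0.076 to 0.30). In run r770 alone *Saa1* was at 0.53, *Saa2* 0.58, *Orm3* 0.053, *Crp* 0.048 and *Apcs* 0.14; with the replicate block and the run term they were at 0.30, 0.28, 0.20, 0.039 and 0.094. Without the run term *Lcn2* was at -0.61, *Bcl3* -0.12 and *Nfkbia* -0.080. When WRE-edited 4 and 6 were added into 1 library and the run term dropped, *Lcn2* was at -0.60, *Apcs* 0.058, *Fetub* -0.027, *Bcl3* -0.23, *Rela* -0.00359, *Socs3* -0.083 and *Nfkbia* -0.066. With the replicate block and no run term, *Orm3* was at 0.24, *Lcn2* -0.35, *Apcs* 0.13, *Fgg* -0.064, *Fetub* -0.11, *Ahsg* -0.037, *Bcl3* -0.40, *Stat3* -0.032, *Rela* -0.11, *Socs3* -0.073 and *Nfkbia* -0.13. With WRE-edited 2 and Rosa26-edited 5 both left out, an alternative added after the data were seen, *Saa3* was at -0.037, *Il6ra* -0.31 and *Nfkbia* -0.022. Some named pathway, factor and further acute phase genes passed an adjusted p of 0.05 in single alternatives. *Foxa2* did so in 2 of 24, and *Foxa3*, *Cebpb*, *Bcl3*, *Socs2* and *Mt2* in 1 of 24 each.

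Correlations with *Saa1* without the 2 farthest libraries were 0.56 for *Saa2*, 0.50 for *Orm1*, 0.64 for *Crp*, -0.086 for *Orm3*, -0.36 for *Hp* and -0.79 for *Apcs*. Without Rosa26-edited 5 alone they were 0.24 for *Hp* and 0.48 for *Crp*, neither past the threshold, and on log2 TPM + 1 *Saa3* (0.72) and *Orm3* (0.59) passed it. Depth limits *Orm3*, with as few as 8 counts in a library; the other 9 genes had at least 432 counts in every library. Intervals for group differences in *Saa1*, *Saa2*, *Orm2*, *Orm3*, *Hp* and *Lcn2* still allow changes of over 1 on the log2 scale in at least 1 direction.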
